A study of Mus musculus with 32 samples.

Results

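The immunoglobulin constant genes and Jchain were followed through 32 mouse liver tumour libraries. Members were the 10 listed genes of this group out of 54446 genes in the count tables: the kappa light chain gene Igkc, the lambda genes Iglc1 and Iglc2, the heavy chain genes Ighm (IgM), Ighg1, Ighg2b, Ighg2c and Ighg3 (IgG) and Igha (IgA), and Jchain. They were taken by name, whatever their level, and all 10 were in the tables.

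The tumours grew from BNL-MEA cells, a mouse hepatocellular carcinoma line, implanted into the livers of immune-competent Balb/c mice, and each library came from the RNA of a whole piece of tumour. In the dose experiment, labelled p112, 4 libraries were from vehicle mice, 3 from mice on 5 mg/kg/day of the kinase inhibitor regorafenib, called the low dose here, and 3 from mice on 20 mg/kg/day, the high dose. VEGF receptors are among the targets of this oral drug. In the DC-101 experiment, labelled p103, 4 vehicle and 3 low dose libraries stood beside 3 from mice that received DC-101, which blocks mouse VEGFR2, in amounts of 800 ug on day 1, day 3 and day 5. The anti-PD1 experiment, labelled p101, had 3 libraries in each of 4 groups: vehicle, low dose regorafenib, anti-PD1 antibody, and both agents together. All groups carried the same tumour line, and 1 line grown in 1 strain limits them as a model. The labels give no age and do not tie a library to an animal, so p-values measure the spread between these libraries.

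An antibody is built from a pair of heavy chains and a pair of light chains. A naive B cell makes IgM and IgD from the first heavy chain constant genes of the locus, and class switching then joins the same variable region to a gene further downstream, for IgG, IgE or IgA. Light chains in mice are mostly kappa, with a small lambda fraction. Plasma cells, the secreting end stage of the B cell line, make very large amounts of these transcripts, and they also make the J chain, a small protein that links IgM pentamers and IgA dimers. In tumours, B and plasma cells can gather in lymphoid aggregates. Mature B cells and plasma cells are known sources of light chain transcripts. In bulk tissue, more cells of a type and more RNA per cell cannot be told apart.

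The positions are those of GRCm38, the build of the counts. Igkc is a single exon at chr6:70726435-70726966 on the plus strand, within the intron span of the noncoding gene Gm30211 and without overlap with its exons. The heavy chain genes lie side by side on the minus strand of chromosome 12, Ighm at chr12:113418558-113422730, Ighg3 at chr12:113356224-113361232, Ighg1 at chr12:113325240-113330523, Ighg2b at chr12:113302965-113307933, Ighg2c at chr12:113285325-113288932 and Igha at chr12:113254830-113260236. Iglc1 (chr16:19061618-19062071) and Iglc2 (chr16:19198396-19200351) are on the minus strand of chromosome 16, and Jchain is at chr5:88519809-88527891 on the minus strand.

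The 4 IgG genes are close copies, so the subclass of a read rests on the bases in which they differ. Over the first 3 exons, Ighg2b and Ighg2c shared 90.2% of aligned bases, and the other pairs shared 76.9% to 82.4%. Exon 2, the hinge between the arms and the stem of the antibody, differs in length. The hinge exons are shown 5′ to 3′ on the coding strand, from the Gencode transcripts. Lower case marks runs of at least 8 bases found in another of the 4 hinges, and capitals mark the rest.
Ighg1 hinge, chr12:113329844-113329882, minus strand: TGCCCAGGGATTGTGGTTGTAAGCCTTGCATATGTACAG
Ighg2b hinge, chr12:113307261-113307326, minus strand: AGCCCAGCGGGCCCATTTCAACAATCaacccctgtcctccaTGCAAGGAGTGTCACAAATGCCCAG
Ighg2c hinge, chr12:113288263-113288325, minus strand: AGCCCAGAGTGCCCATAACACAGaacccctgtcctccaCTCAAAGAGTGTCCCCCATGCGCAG
Ighg3 hinge, chr12:113360529-113360576, minus strand: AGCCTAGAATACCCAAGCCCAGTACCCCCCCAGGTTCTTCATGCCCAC
The hinges are 39, 66, 63 and 48 bases long, and a shared run of 15 bases, the lower case stretch, was found only in Ighg2b and Ighg2c.

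The lambda genes are shown by the first 60 bases of the constant exon, because Iglc2 has a near-identical neighbour, Iglc3, which is no member. Capitals mark bases that differ from Iglc2, and in Iglc2 those that differ from Iglc3.
Iglc1, chr16:19062012-19062071, minus strand: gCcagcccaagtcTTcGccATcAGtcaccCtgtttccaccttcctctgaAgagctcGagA
Iglc2, chr16:19198793-19198852, minus strand: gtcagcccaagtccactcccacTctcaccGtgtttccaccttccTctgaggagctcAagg
Iglc3, chr16:19065622-19065681, minus strand: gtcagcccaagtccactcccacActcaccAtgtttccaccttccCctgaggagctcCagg
Over the constant exon, Iglc2 shared 95.3% of bases with Iglc3 and 72.1% with Iglc1. No window of 100 bases, the read length, was identical between a member's longest transcript and another constant gene. Read pairs that fit several copies are still uncertain, and counts of Iglc2 and of the IgG subclasses are less certain than their sums. The genome is that of C57BL/6, which carries Ighg2c where the Balb/c strain carries Ighg2a. Reads listed under Ighg2c may therefore be Ighg2a reads aligned there, which was not tested.

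Total counts per library were 16767130 to 27693689. The 10 members together held between 387 counts (0.00183% of a library) and 112320 counts (0.42%), with a median of 1611 counts. The highest value was the high dose library 2, which stood far from all others, and the main member results that rest on it are given with and without it. Liver transcripts also varied widely, since the 16 hepatocyte markers summed to between 25.4 and 124787 CPM, and none of the 16 was at 0 in any library.

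In vehicle tumours the members were rare, and the IgM gene led them. Over the 11 vehicle libraries, Ighm ran from 10.4 to 67.1 CPM (counts relative to the TMM-scaled library total) with a median of 43.5 CPM. Igkc ran from 0.93 to 9.99 CPM with a median of 4.63 CPM, and Jchain from 0.127 to 2.94 CPM with a median of 1.24 CPM. Every vehicle library thus had more Ighm than Igkc reads. Igha had a median of 2.16 CPM, and the 4 IgG genes had medians between 0.0423 CPM (Ighg3) and 0.252 CPM (Ighg1). Those IgG medians stand for 1 to 6 counts, so single IgG genes could hardly be measured in vehicle tumours.

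Compared per length, the heavy and light chain genes were out of balance in the vehicle tumours of the dose experiment. There the Ighm level per kilobase of exon was 11.1, 4.19, 8.32 and 3.30 times that of the 3 light chain genes together. The same ratio was 0.787, 1.94, 1.33 and 4.19 in the vehicle libraries of the DC-101 experiment and 1.99, 0.576 and 0.352 in those of the anti-PD1 experiment. The lowest ratio of all 32 libraries was 0.175, in low dose library 3 of the anti-PD1 experiment, and the median was 1.64. The vehicle ranges of the dose and DC-101 experiments overlapped, and differences in this ratio between groups were not tested.

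**Figure D1:**
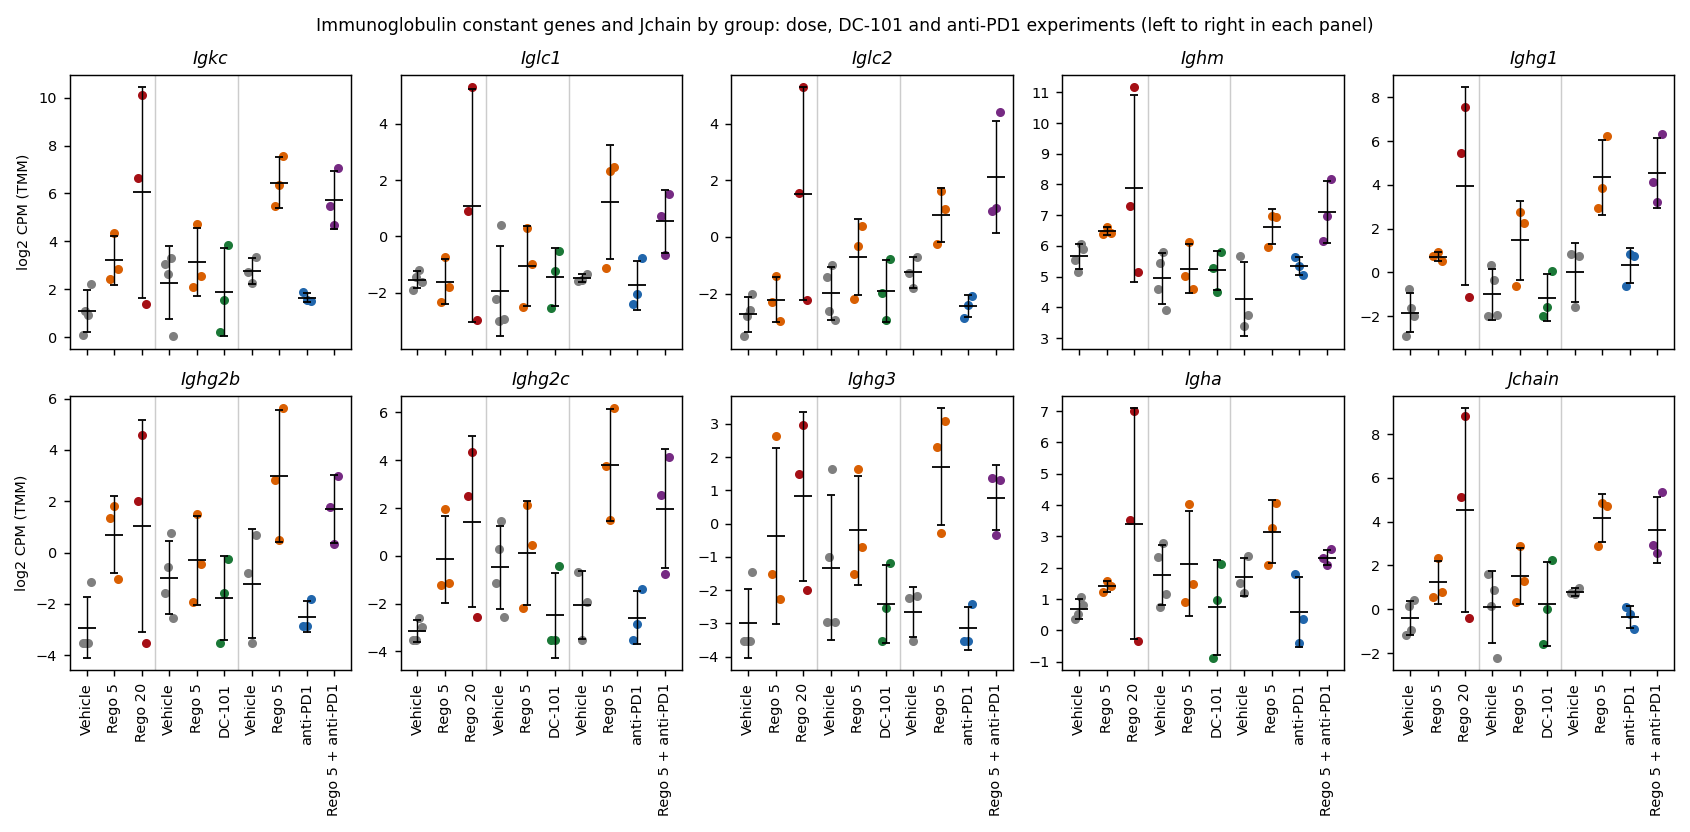
Log2 CPM of each member in every library (points) with the mean and SD of each group (bars), with the dose experiment on the left, DC-101 in the middle and anti-PD1 on the right. Rego 5 and Rego 20 are regorafenib at 5 and 20 mg/kg/day. The 3 high dose libraries lie far apart for Igkc (2.52 to 1111 CPM) and Ighm (35.6 to 2307 CPM), and the low dose and combination groups of the anti-PD1 experiment lie above their vehicle for Igkc and Jchain.

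Low dose regorafenib was compared with vehicle over all 3 experiments (9 against 11 libraries), with the experiment as a term. Igkc, Ighg1 and Jchain rose. Ighg1, the gene of the main IgG subclass of type 2 responses, rose by 3.44 ± 0.60 on the log2 scale (SE, adjusted p = 0.0042 in edgeR's quasi-likelihood test). Igkc rose by 2.28 ± 0.55 (adjusted p = 0.0405) and Jchain by 2.19 ± 0.52 (adjusted p = 0.0382). These are 3 of the 7 members that passed the filter on low counts, all higher, where 0.733% of the 15562 genes tested were called higher and 1.77% were called in either direction.

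Ighg1 was at 0.564 CPM in the lowest, 4.67 CPM in the median and 75.7 CPM in the highest low dose library, against 0.0445, 0.252 and 1.69 CPM in vehicle. All 9 low dose libraries were above the mean of their own vehicle group. Igkc ran from 4.12 through a median of 20.3 to 188 CPM under the low dose. Its log2 CPM was above the vehicle mean of log2 CPM in 8 of 9 libraries. Jchain ran from 1.17 through 4.94 to 28.6 CPM, and its log2 CPM was above that mean in 9 of 9. In CPM, the vehicle means of the DC-101 experiment were 6.33 for Igkc and 1.46 for Jchain. Low dose libraries there at 4.12 and 5.84 CPM (Igkc) and 1.17 CPM (Jchain) lay below them. For each of the 3 genes, the low dose and vehicle ranges overlapped when the experiments were put together.

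The other 4 members tested did not pass the threshold. The gene of IgM, Ighm, had a log2 difference of 1.0 ± 0.34 (adjusted p = 0.145), with 24.2 to 126 CPM under the low dose. Igha had 1.02 ± 0.38 (adjusted p = 0.181), Ighg2b 3.37 ± 0.98 (adjusted p = 0.0845) and Ighg2c 4.19 ± 1.19 (adjusted p = 0.0779). All 7 had an unadjusted p under 0.05 with a positive difference, as did 8.57% of all genes. Their median difference was 2.28, beside 0.03 over all genes tested. Ighg1, Ighg2b and Ighg2c had under 10 counts in most vehicle libraries and passed the filter largely through low dose libraries, so these counts and this median are a description only. Iglc1, Iglc2 and Ighg3 were below the filter in this fit. A filter that looks at treatment and experiment together, chosen after seeing the data, kept all 10 members and again called 3.

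The 3 calls did not depend equally on single libraries. The Ighg1 call held in each of the 20 fits that left out 1 library (adjusted p 0.00252 to 0.0154), whereas those of Igkc and Jchain were lost in 12 and 9 of the 20. These fits keep the low vehicle counts of Ighg1 (median 6) and the same filter rule, so they add no separate support for its call. The calls of all 3 were lost without the dose experiment and without the DC-101 experiment. DESeq2 called 6 of the 7 members (5.73% of all genes) and limma voom 5 (1.97% of all genes). Only 1 member was called with no filter, with at least 10 counts in every library, with the replicate block, or without the anti-PD1 experiment.

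Within single experiments, none of the low dose differences of a member passed the threshold. In the dose experiment, Igkc was at 5.26, 20.3 and 7.03 CPM under the low dose against 0.978, 2.01, 1.79 and 4.62 CPM in vehicle. Ighm was at 84.1, 98.4 and 86.0 CPM against 46.5, 35.5, 67.1 and 59.0 CPM. The groups did not overlap for these genes, and 7 of the 9 members tested (Igkc, Ighm, Ighg1, Ighg2b, Ighg2c, Igha and Jchain) had all low dose libraries above all vehicle libraries, as did 7.81% of the genes. So did 8 of 10 macrophage, 6 of 12 T cell and 4 of 7 transport and Fc receptor genes tested, and the part of these cells in the member differences was not tested. The fitted differences were 2.16 ± 1.38 for Igkc and 0.75 ± 1.02 for Ighm on the log2 scale (adjusted p = 0.991 for both, edgeR), with 0.0% of 16525 genes called. This fit shares 1 estimate of the spread over all groups of the experiment, so the SE and p-values include the high dose spread. The SD of Ighm was 3.05 log2 CPM under the high dose, beside 0.12 under the low dose and 0.40 in vehicle. The Igkc difference was 1.38 without low dose library 2 and 2.74 without vehicle library 4. By unadjusted p under 0.05, 3 of the 9 members were higher (Ighg2b, Ighg2c and Ighg3), as were 2.41% of genes, and neither DESeq2 nor limma voom called a member. Iglc1, Ighg1, Ighg2b, Ighg2c and Ighg3 had at most 9 counts in any vehicle library of this experiment and passed the filter through treated libraries, so these counts of members are a description and no support. Ighg2c had 3 counts in all 4 vehicle libraries together, and its level under the low dose was 46.8 times as high by counts (95% exact interval 15.6 to 230, for counting error only). Low dose library 2 held most of the 121 low dose counts, at 3.80 CPM beside 0.341 and 0.364 CPM in the other two, and without it the fitted log2 difference of Ighg2c was 3.25 instead of 5.30.

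In the DC-101 experiment the low dose libraries were more mixed. Igkc was at 4.12, 26.6 and 5.84 CPM against 8.29, 6.20, 9.89 and 0.93 CPM in vehicle. Ighg1, at 0.564, 6.66 and 4.67 CPM against 0.166, 1.18, 0.69 and 0.169 CPM, was the only member with an unadjusted p under 0.05 (log2 difference 2.84 ± 0.97, adjusted p = 0.202), where 7.58% of genes were higher at that level. Log2 differences over the 10 members ran from 0.31 (Ighm) to 2.84 (Ighg1), 0 of 10 were called by edgeR, DESeq2 or limma voom, and 0.0248% of 16138 genes were called. Igkc and Jchain had 0.96 ± 1.03 and 1.33 ± 1.10 (adjusted p = 0.649 and 0.544). Low dose library 2 was the highest of its group for 9 of the 10 members, all but Iglc2, and without it the Igkc difference was -0.31, the Ighm difference -0.26 and the Jchain difference 0.32.

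In the anti-PD1 experiment the fitted low dose difference of Igkc was 3.86, beside 2.16 and 0.96 in the others. Igkc was at 43.8, 80.5 and 188 CPM against 6.58, 4.63 and 9.99 CPM in vehicle (log2 difference 3.86 ± 0.68, adjusted p = 0.246, edgeR). Ighm was at 62.6, 126 and 122 CPM against 50.6, 10.4 and 13.5 CPM. Ighg1 was at 7.56, 14.2 and 75.7 CPM against 1.69, 0.252 and 1.59 CPM, and Jchain at 7.37, 28.6 and 26.5 CPM against 1.56, 1.51 and 1.90 CPM. For 8 of the 10 members, all but Ighg2b and Igha, all low dose libraries were above all vehicle libraries, as they were for 6.93% of genes. Of the B cell markers, 9 of the 10 tested had positive differences and 4 had an unadjusted p under 0.05, while all 6 Kupffer cell markers had negative differences (median -3.07) and 5 had such a p, with 0 called in either list. The part of these cells in the member differences was not tested. Iglc1 and Ighg3 had under 10 counts in every vehicle library and passed the filter through the other groups, so the counts of members here are a description only. Log2 differences ran from 1.58 ± 0.62 (Igha) to 6.83 ± 1.65 (Ighg2c). Without low dose library 3, Igkc had 3.16, Ighg1 3.22, Ighg2b 2.64 and Ighg2c 5.02. All 10 had an unadjusted p under 0.05, beside 4.87% of genes that were higher at that level, but 0 of 10 passed adjustment in edgeR, as did 0.0% of 16615 genes. DESeq2 called 8 of them, beside 2.62% of all genes, and limma voom 0.

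Whether the low dose difference itself varied between the experiments was tested by an interaction term. No member passed it (0 of 7, with 0.0% of 15562 genes called, edgeR). The smallest unadjusted p among the members was 0.0202, for Ighg2c, and 1481 genes (9.52%) had an unadjusted p under 0.05. The values of the 3 experiments are thus not shown to differ from each other by this test.

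Hepatocyte markers had low dose differences of opposite sign in these experiments, with 0 of 16 called in each. Over the 16 hepatocyte genes, the median log2 difference was 1.63 in the dose experiment and 3.12 in the DC-101 experiment, with 16 of 16 above 0 in both. It was -1.80 in the anti-PD1 experiment, with 16 of 16 below 0 and summed levels of 1356 to 5304 CPM against 11405 to 16100 CPM in vehicle. The member differences were positive in all 3. With a hepatocyte covariate in the pooled fit, Igkc had 2.31 (adjusted p = 0.0294), Ighg1 3.56 (adjusted p = 0.00409) and Jchain 2.33 (adjusted p = 0.0226, edgeR), and no other member was called. The part of liver tissue in the differences was not tested. The 8 erythrocyte markers, of which 6 were tested, had negative differences in each of these fits (pooled median -2.22), with 0 called.

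High dose regorafenib was set against vehicle in the dose experiment, where 15.6% of 16525 genes were called and 8.8% were called higher. By this test, 7 of the 9 members tested rose: Igkc, Iglc1, Ighm, Ighg1, Ighg2c, Igha and Jchain. Iglc1, Ighg1 and Ighg2c had at most 9 counts in any vehicle library and passed the filter through treated libraries, so the count of 7 is a description only. The 3 high dose libraries, however, did not resemble each other. Igkc was at 99.6, 1111 and 2.52 CPM in libraries 1, 2 and 3, and Ighm at 156, 2307 and 35.6 CPM. Ighg1 was at 43.2, 186 and 0.372 CPM and Jchain at 35.1, 457 and 0.662 CPM. Library 3 thus lay within the vehicle range for these genes, library 1 was far above it, and library 2 further still.

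Fitted log2 differences of the called members ran from 3.99 ± 1.10 for Ighm (adjusted p = 0.046) to 8.36 ± 1.62 for Ighg1 (adjusted p = 0.0303). That of Igkc was 7.39 ± 1.65 (adjusted p = 0.0356) and that of Jchain 7.73 ± 1.73 (adjusted p = 0.0355). Ighg2b (adjusted p = 0.0501) and Ighg3 (adjusted p = 0.0633) missed the threshold. Ighg2c alone had all high dose libraries above all vehicle libraries, where 12.5% of genes did. That separation rests on 2 counts in library 3 and 3 counts in all vehicle libraries together.

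These calls did not survive small changes. Without library 2, which held most of the reads, 1 of 9 members was called, Ighg1 (log2 difference 6.60, adjusted p = 0.0487), and the differences of Ighm, Igkc and Jchain were 0.93, 4.49 and 4.6. Without library 1, 2 members were called, and without library 3, all 10. Leaving out any 1 vehicle library left 0. Limma voom and a fit of the 2 groups alone also called 0, and DESeq2 called 9 of 9, beside 31.9% of all genes.

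Markers of other cell types moved with the high dose libraries in different ways. The 12 B cell markers summed to 16.5, 117 and 12.1 CPM in libraries 1, 2 and 3, beside 7.2 to 10.6 CPM in vehicle, and 3 of the 10 tested (Cd79a, Cd22 and Blk) rose. The 12 plasma cell markers summed to 1039, 988 and 941 CPM beside 975 to 1072 CPM in vehicle, a sum dominated by Sdc1, Txndc5 and Xbp1, which many tumour and stromal cells make. The hepatocyte markers summed to 124787, 27858 and 5173 CPM beside 1966 to 11407 CPM, so library 1 held the most liver transcripts and library 2 the most immunoglobulin. The 10 lymphoid tissue markers summed to 29.8, 90.9 and 14.2 CPM, beside 9.71 to 28.2 CPM in vehicle. Of the T cell markers 6 of 12 rose, of the macrophage markers 8 of 10 fell, and of the proliferation markers 2 of 6 fell. Library 1 also stood apart in its mitochondrial share (5.37% of counts beside 1.84 to 2.31% in vehicle), in the share of its top 10 genes (11.9% beside 5.80 to 6.86%) and in its TMM factor of 0.687, and the part of these in the result was not tested. With the hepatocyte score as a covariate, 0 of 9 members were called.

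Set against the low dose, the high dose showed 0 of 9 members called, where 4.22% of genes were. Log2 differences ran from 0.73 ± 1.57 for Ighg3 to 5.96 ± 1.79 for Jchain (adjusted p = 0.767 and 0.0881, edgeR). Those of Igkc, Ighm, Ighg1 and Igha were 5.23, 3.23, 5.62 and 4.21. Without high dose library 2 these 4 were 2.31, 0.17, 3.86 and 1.31, Jchain had 2.83 and Ighg3 had -0.51, with 0 called. By unadjusted p under 0.05, 6 of 9 were higher, beside 16.3% of genes. DESeq2 called 6 (18.5% of all genes) and limma voom 0. Library 3 of the high dose was below all 3 low dose libraries for Igkc, Ighm and Ighg1, so the groups overlapped for each.

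DC-101 showed no called difference in any member. Igkc was at 1.08, 2.80 and 14.4 CPM under DC-101 against 8.29, 6.20, 9.89 and 0.93 CPM in vehicle (log2 difference -0.05 ± 1.05, adjusted p = 0.989, edgeR). Differences over the 10 members ran from -2.60 ± 1.71 for Ighg3 to 0.43 ± 1.11 for Jchain, with 0.0% of 16138 genes called. At an unadjusted p under 0.05 no member stood out, where 13.2% of genes did, and DESeq2 and limma voom called 0. Standard errors of 0.52 to 1.71 leave room for changes in either direction. Set against DC-101, the low dose had positive differences in all 10 members with a median of 1.62, among them 0.13 ± 0.56 for Ighm, 1.01 ± 1.13 for Igkc and 3.14 ± 1.10 for Ighg1. Without low dose library 2, Igkc had -0.31, Ighm -0.47 and Ighg1 2.53. No member passed adjustment in edgeR, DESeq2 or limma voom (0.0% of genes did in edgeR). Ighg1 had the only unadjusted p under 0.05 (adjusted p = 0.493, edgeR), where 8.45% of genes had one.

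Anti-PD1 alone was set against the vehicle of its experiment. Igkc was at 3.58, 2.85 and 2.75 CPM against 6.58, 4.63 and 9.99 CPM in vehicle, a log2 difference of -1.28 ± 0.63 (adjusted p = 0.401, edgeR). Jchain was at 0.973, 0.764 and 0.45 CPM against 1.56, 1.51 and 1.90 CPM (-1.26 ± 0.77, adjusted p = 0.5). Igkc, Jchain and Iglc2 were the 3 of 10 members with all anti-PD1 libraries below all vehicle libraries, as were 7.63% of genes. Ighm pointed the other way, at 49.7, 40.4 and 33.3 CPM (0.65 ± 0.61, adjusted p = 0.679, edgeR). Its difference was 0.29 to 1.68 without 1 library and turned negative with the hepatocyte covariate. The lowest difference was that of Ighg2b, at -2.73 ± 1.63, which was -1.37 without vehicle library 3 and -3.65 without anti-PD1 library 3. None of the 10 was called by edgeR, DESeq2 or limma voom, none had an unadjusted p under 0.05, where 13.7% of genes did, and edgeR called 0.0% of genes. All 16 hepatocyte markers were lower than in vehicle with no overlap.

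Regorafenib plus anti-PD1 was set against the same vehicle libraries, and its difference from the low dose alone was not tested. Igkc was at 44.8, 25.5 and 133 CPM, Ighm at 71.4, 126 and 286 CPM, Ighg1 at 17.5, 9.07 and 78.9 CPM and Jchain at 7.53, 5.89 and 41.0 CPM. Against vehicle, log2 differences ran from 0.53 ± 0.61 (Igha) to 4.94 ± 1.55 (Ighg2c), with 3.22 ± 0.66 for Igkc (adjusted p = 0.449, edgeR). Without combination library 3 the Igkc difference was 2.29, that of Ighg2c 3.61 and that of Iglc2 2.35. For 7 of 10 members the groups did not overlap, all higher, as for 10.8% of genes. No member passed adjustment (0.0% of 16615 genes did), 8 of 10 had an unadjusted p under 0.05 beside 3.71% of genes that were higher, DESeq2 called 6 (0.903% of all genes) and limma voom 0. Iglc1 and Ighg3 had under 10 counts in every vehicle library and passed the filter through the other groups, so these counts of members are a description only.

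Against anti-PD1 alone the separation was wider. All 10 members had all combination libraries above all anti-PD1 libraries, where 14.2% of genes did. The mitochondrial share of counts (1.36 to 2.34% against 0.37 to 0.68%) and the TMM factors (1.004 to 1.018 against 0.914 to 0.96) also separated these groups, and their part in the differences was not tested. Ighg2b, Ighg2c, Ighg3 and Iglc2 had under 10 counts in every anti-PD1 library and passed the filter through the other groups, so the counts of members here are a description only. Igkc had a log2 difference of 4.50 ± 0.70 (adjusted p = 0.37, edgeR), Jchain 4.66 ± 0.83 and Iglc2 6.31 ± 1.17 (both adjusted p = 0.472). The lowest was Igha at 1.54 ± 0.63. Without combination library 3, Igkc had 3.57, Jchain 3.24 and Iglc2 4.17. All 10 had an unadjusted p under 0.05, beside 6.52% of genes that were higher, and 0 passed adjustment in edgeR (0.0% of genes) or limma voom, while DESeq2 called 7 (1.16% of all genes). Ighg3 had 2 counts in all anti-PD1 libraries together and 130 in the combination, a ratio of 53.6 (95% exact interval 14.5 to 447, for counting error only). The comparisons of this experiment share their vehicle or anti-PD1 libraries. All but 1 of the 16 hepatocyte markers were also higher at an unadjusted p under 0.05 against anti-PD1 alone. So were 7 of the 12 T cell markers, 11 of which did not overlap, and 5 of the 7 lymphoid tissue markers tested, and the part of these tissues and cells in the differences was not tested.

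**Figure D2:**
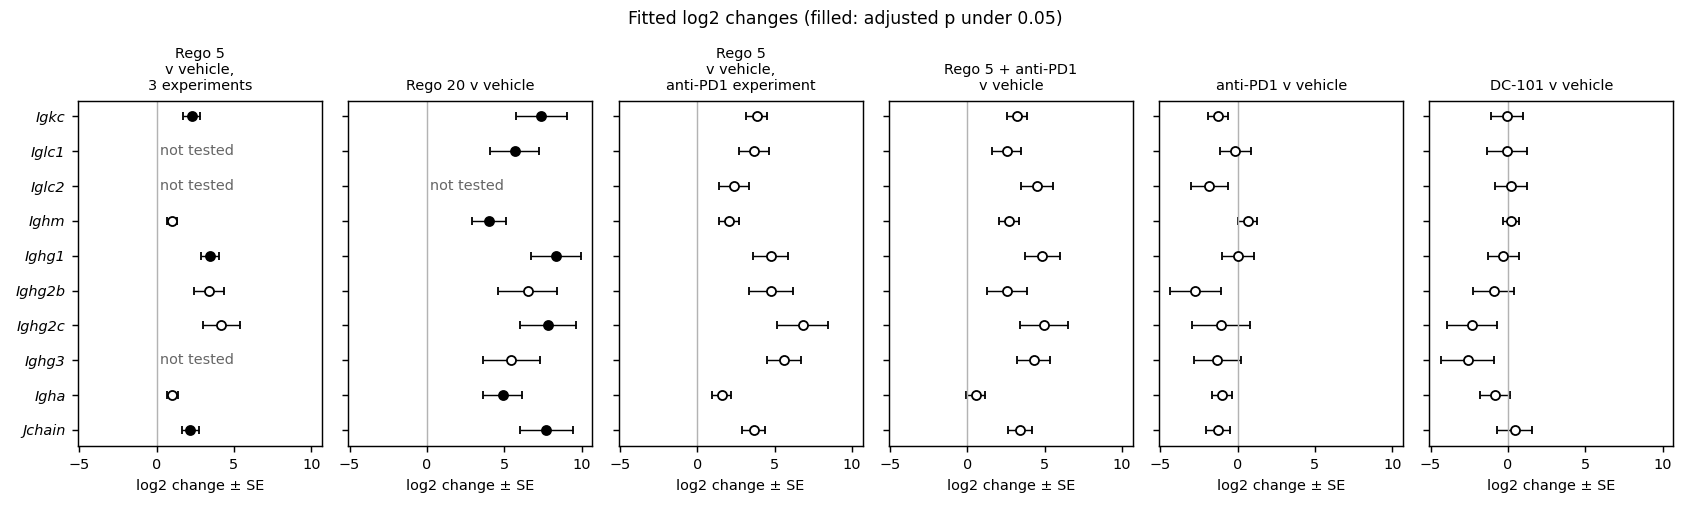
Fitted log2 differences (points) with their SE (bars) for each member in 6 comparisons, with filled points where the adjusted p was under 0.05. All fitted values of the regorafenib groups lie to the right of 0, and those of DC-101 and of anti-PD1 alone lie on both sides of it. The value of Ighg2c under the high dose is set against 3 vehicle counts and is no measured fold.

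In order of mean Igkc level, the groups ran from the vehicle of the dose experiment (1.08 ± 0.88 log2 CPM) to the low dose of the anti-PD1 experiment (6.45 ± 1.06 log2 CPM, SD). Of the 9 steps between neighbours in this order, 1 was larger than the SDs of both neighbours, the step of 2.54 from the low dose of the dose experiment (3.20 ± 1.02) to regorafenib plus anti-PD1 (5.74 ± 1.21). For Ighm 1 of 9 steps was, and for each of the 4 IgG genes and Igha 0 of 9. Vehicle, DC-101 and anti-PD1 groups took the 5 lowest places for Igkc and no place among the highest 5.

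The isotypes were compared within libraries, as shares of the reads of the 6 heavy chain genes. IgM held most reads in all but 1 library, with a median of 88.9% and a highest value of 98.4%. The exception was low dose library 3 of the anti-PD1 experiment, with 59.6% IgG (95% Wilson interval 58.5 to 60.7%) and 35.5% IgM. IgG ran from 0.0931% to that value with a median of 5.07%, and IgA from 1.15% to 23.3% with a median of 4.73%. Reads of PCR-amplified libraries without molecular identifiers are not independent molecules, so intervals cover counting error only.

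The IgG share of heavy chain reads was higher under the low dose. It was 5.08, 13 and 2.45% in the dose experiment against 0.0931, 1.35, 0.449 and 1.37% in vehicle. In the DC-101 experiment it was 3.18, 16.2 and 20.9% against 2.76, 6.86, 11.4 and 2.16%. In the anti-PD1 experiment it was 32.9, 12.3 and 59.6% against 5.05, 1.95 and 15.5%. Only the first of these experiments had groups that did not overlap, and 8 of the 9 low dose libraries were above their own vehicle mean. The mean difference over experiments was 13.7 percentage points (exact 2-sided permutation of the treatment within experiments, p = 0.00555, adjusted p = 0.0222 over 4 shares, n = 9 and 11). The differences within experiments were 6.03, 7.63 and 27.5 points.

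The call for IgG depended on the libraries used. Without the dose experiment the difference was 17.6 points (adjusted p = 0.114), without the anti-PD1 experiment 6.83 points (adjusted p = 0.111), and without the DC-101 experiment 16.8 points (adjusted p = 0.0314). It was also lost without each of the vehicle libraries 1, 2 and 3 of the anti-PD1 experiment (adjusted p = 0.11, 0.158 and 0.0945). With counts divided by exon length the difference was 13.4 points (adjusted p = 0.0278).

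The other shares did not pass the test. The IgM share was 75.8 ± 18.9% under the low dose and 86.6 ± 10.8% in vehicle (SD, n = 9 and 11; mean within-experiment difference -9.96 points, adjusted p = 0.166, exact permutation). Its difference ran from -13.5 to -5.88 points without 1 library, and it was called without low dose library 1 of the DC-101 experiment. The IgA share was 5.75 ± 4.14% against 8.99 ± 7.32% (-3.76 points, adjusted p = 0.207, exact permutation), with vehicle libraries of the anti-PD1 experiment at 4.90, 17.2 and 23.3%. Leaving out 1 library at a time gave -5.46 to -2.40 points, and the difference was -0.62 points without the anti-PD1 experiment. The 3 shares add to 100%, so a higher share of one class leaves less for the other two together. In absolute terms, IgA levels under the low dose were not lower, at 6.55 ± 6.10 CPM against 2.90 ± 1.87 CPM.

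The other treatments were described by the same shares. IgG made up 24.8, 8.90 and 1.68% under the high dose and 27.6, 8.08 and 26.7% under regorafenib plus anti-PD1. It made up 0.418, 2.31 and 4.35% under DC-101 and 1.14, 4.16 and 5.99% under anti-PD1. High dose library 2, with the most immunoglobulin reads of all, was an IgM library at 86.3% of heavy chain reads.

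The leading IgG subclass differed between libraries of the same group in 2 of the 3 low dose groups. In the low dose group of the anti-PD1 experiment, library 1 was led by Ighg2c with 40.7% of IgG reads, library 2 by Ighg1 with 74.7%, and library 3 was shared between Ighg1 (36.9%) and Ighg2c (35.1%). In the low dose group of the dose experiment, Ighg2b led library 1 (52.5%), Ighg3 led library 2 (40.6%) and Ighg1 led library 3 (60%). By contrast, Ighg1 led all 3 low dose libraries of the DC-101 experiment, at 50, 39.8 and 65.7%, and all 3 anti-PD1 libraries, at 91.7, 94.3 and 72.7%. Ighg1 led all 3 libraries of regorafenib plus anti-PD1, at 60.2, 79.3 and 74.0%, and all 3 of the high dose, at 77.9, 78.1 and 60%. The last of these rests on few reads, and so do the subclass shares of the anti-PD1 libraries and of most vehicle libraries. Over the 32 libraries, Ighg2b and Ighg2c, the most alike pair in sequence, had group-centred levels that correlated at r = 0.88, beside 0.87 for Ighg2c and Ighg3 and 0.84 for Ighg1 with Ighg2c. Without the high dose these were 0.83, 0.83 and 0.79.

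The lambda genes held a median of 7.88% of light chain reads, from 1.75% to 22%. Under the low dose the share was 6.66 ± 6.06% against 10.1 ± 5.15% in vehicle (SD, mean within-experiment difference -3.26 points, adjusted p = 0.208, exact permutation, n = 9 and 11). Its direction depended on the experiment: the difference was -10.5 points in the dose experiment and 3.88 points in the DC-101 experiment. The vehicle shares of the dose experiment rest on 26 to 125 light chain reads, with a Wilson interval of 6.15 to 33.5% for library 1. Iglc2 was at 21.2 CPM in library 3 of regorafenib plus anti-PD1, beside 1.79 and 1.94 CPM in the other two. There Iglc2 exceeded Iglc1 (2.77 CPM), whereas in high dose library 2 both were alike at 39.0 and 39.4 CPM.

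**Figure D3:**
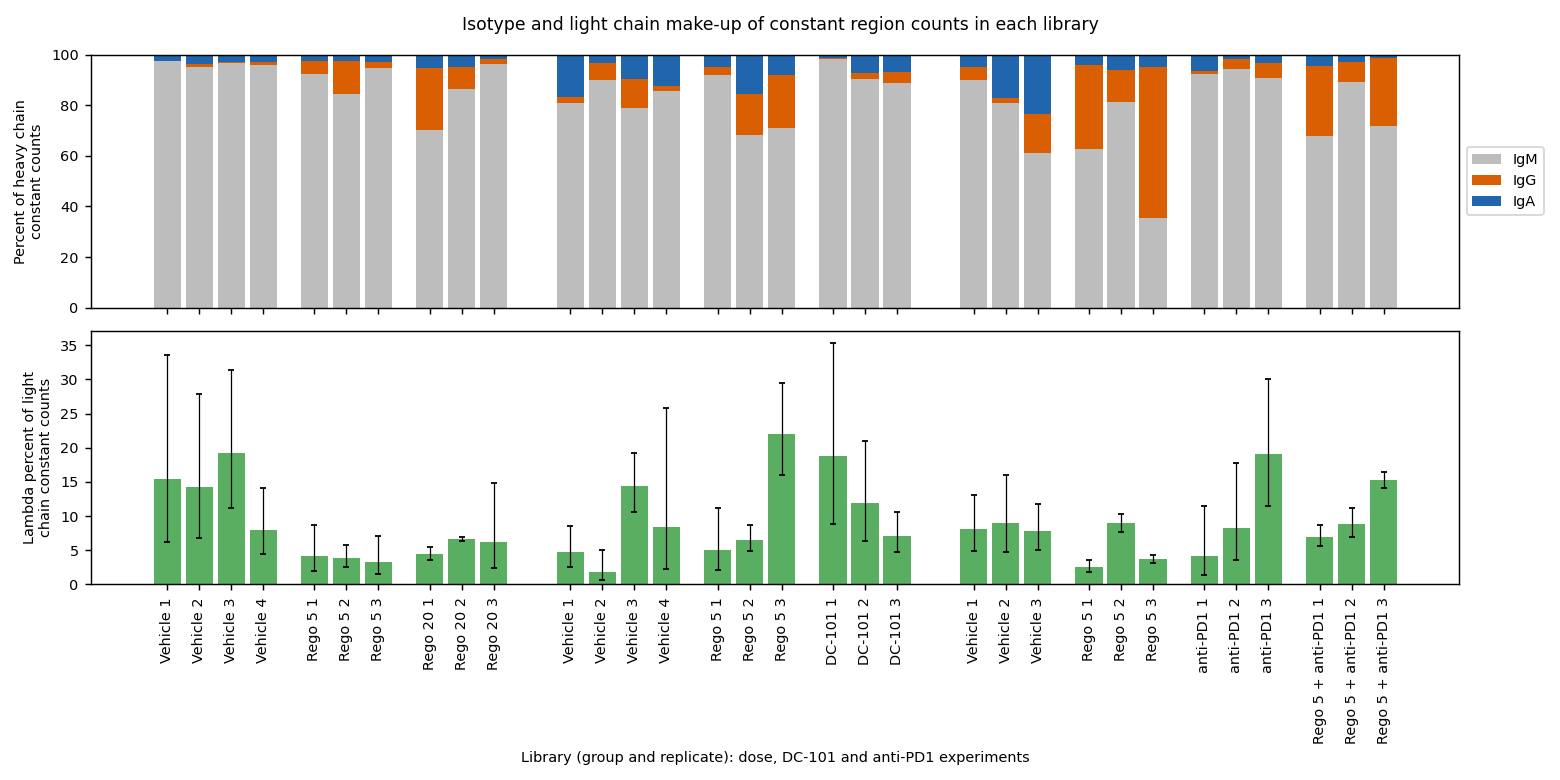
Upper plot, IgM, IgG and IgA as percent of the reads of the 6 heavy chain constant genes in each library. Lower plot, Iglc1 and Iglc2 together as percent of the reads of the 3 light chain genes, with 95% Wilson intervals; IgG reaches 59.6% in low dose library 3 of the anti-PD1 experiment and lambda intervals are wide in the vehicle libraries.

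Jchain followed Igkc more closely than any other member did. Per length, Jchain was 0.0288 to 0.106 times the Igkc level in all 32 libraries, although Igkc itself ran from 0.93 to 1111 CPM. After each group's mean was taken off, log2 CPM of the 2 genes correlated at r = 0.98 over 32 libraries and r = 0.94 over the 29 libraries without the high dose. Igkc correlated with Ighm at r = 0.81 and 0.58 in the same sets. The members share libraries and depth, and these correlations are descriptions.

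Among libraries of the same group, Igkc was compared with 9 marker lists to see which cells varied with it. The list score was the mean log2 CPM of its genes, and both values were centred on the group mean. The B cell list (12 genes, such as Ms4a1, Cd79a and Cd79b) gave r = 0.89 and Spearman's rho = 0.83 (n = 32). The permutation p was 1e-05 for both, the smallest that 100000 permutations can give, and the adjusted p was 9e-05. Without the 2 libraries farthest from the median score (high dose library 2 and low dose library 3 of the anti-PD1 experiment) r was 0.82, and without the 3 high dose libraries, an alternative chosen after seeing the data, it was also 0.82 (n = 29, adjusted permutation p = 0.00045). Within the dose experiment, the DC-101 experiment and the anti-PD1 experiment r was 0.94, 0.79 and 0.83, with adjusted p = 0.462, 0.0783 and 0.0139 (exact permutation within groups).

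The lymphoid tissue list (10 genes, such as Cxcl13, Ccl19 and Ccr7) gave r = 0.86 and rho = 0.72 (permutation p = 0.00014 and 2e-04, adjusted p = 0.00063 and 9e-04). Without the 2 farthest libraries (high dose library 2 and vehicle library 4 of the DC-101 experiment) r was 0.74, and within the dose experiment, the DC-101 experiment and the anti-PD1 experiment it was 0.90, 0.95 and 0.38 (adjusted p = 0.462, 0.0208 and 0.277, exact permutation). The plasma cell list gave r = 0.82 and rho = 0.58 (permutation p = 0.00549 and 0.00738, adjusted p = 0.0165 and 0.0221), but r was 0.55 without high dose libraries 1 and 2 (adjusted p = 0.0815), and no experiment alone passed. The T cell list gave r = 0.45 and rho = 0.47 (permutation p = 0.0202 and 0.0289, adjusted p = 0.0454 and 0.065). Without the 3 high dose libraries, r was 0.76 for the lymphoid tissue list (adjusted p = 0.00063), 0.55 for the plasma cell list (adjusted p = 0.109) and 0.42 for the T cell list (adjusted p = 0.177, permutation tests). The hepatocyte, erythrocyte, macrophage, Kupffer cell and proliferation lists had r of 0.35, 0.08, 0.18, 0.41 and -0.37, with adjusted p from 0.284 to 0.696.

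**Figure D4:**
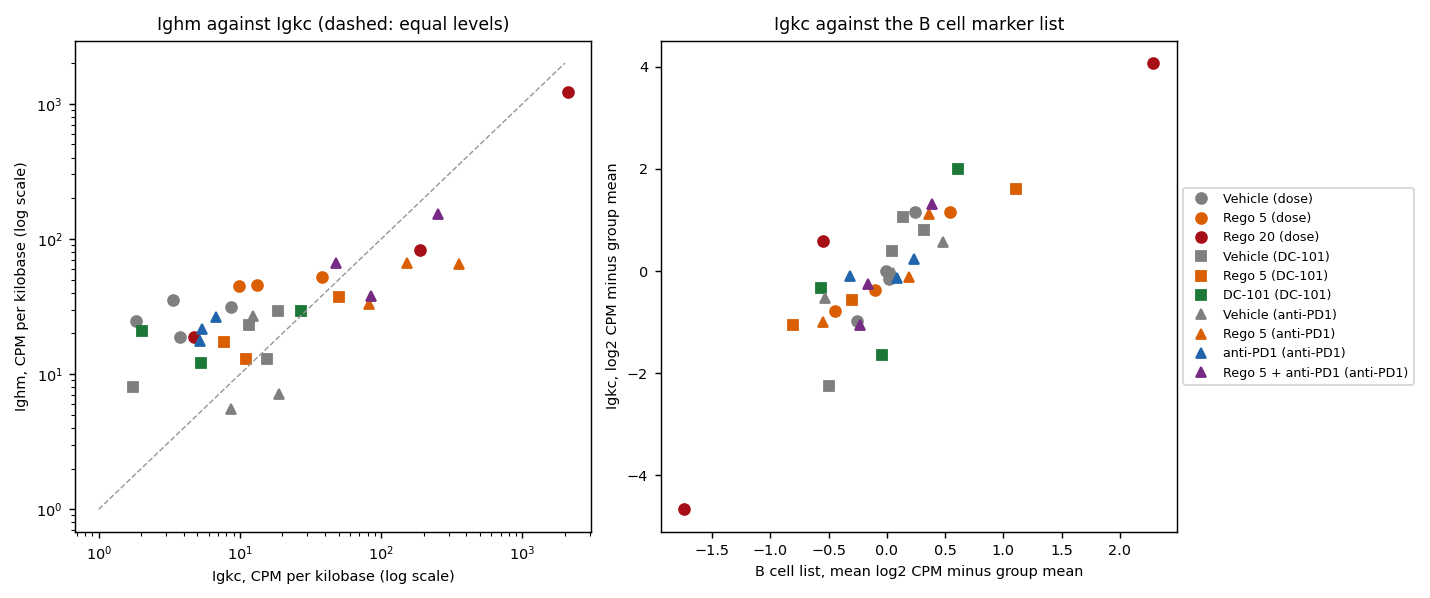
Left, Ighm against Igkc in CPM per kilobase of exon on log axes for all 32 libraries, with a dashed line of equal levels; most libraries with little Igkc lie above the line and those with much Igkc below it. Right, Igkc against the B cell list score, both as log2 CPM minus the group mean (r = 0.89), where the extreme points are high dose libraries 2 and 3.

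The B cell markers themselves were low, and several of them were at 0 in some libraries. Cr2 was at 0 in 7 libraries, Fcer2a in 5, Blk in 4 and Ms4a1 in 2 of 32, and Tnfrsf17, the plasma cell receptor BCMA, was at 0 in 22. In the pooled low dose fit, 0 of 6 B cell markers tested were called, with a median log2 difference of 0.68. Mzb1, a chaperone of antibody secretion, had a median of 0.281 CPM and a highest value of 12.5 CPM.

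Genes that act on antibodies were counted from fixed lists in the pooled low dose fit, where 1.77% of all genes were called and 0.733% were called higher. Of the 7 transport and Fc receptor genes tested, Fcgr1, the high affinity IgG receptor of macrophages, rose (0.73 ± 0.18, adjusted p = 0.0405, edgeR), and 0 fell. Pigr, which carries IgA and IgM across epithelia, had 2.12 ± 0.94 (adjusted p = 0.273). Of the 8 class switching and secretory genes tested, Xbp1, a regulator of the secretory programme that other cells use too, rose (0.47 ± 0.11, adjusted p = 0.0323). Of the 9 survival and homing genes tested, Ccl28, an epithelial chemokine that attracts IgA plasma cells, fell (-0.85 ± 0.21, adjusted p = 0.0461). In the plasma cell list, Sdc1, a surface proteoglycan also made by epithelial tumours, fell (-0.66 ± 0.11, adjusted p = 0.0025), and Xbp1 was the 1 of 9 that rose. Of 4 other constant genes, only Ighd, the gene of IgD, passed the filter, and it was not called (0.59 ± 0.44, adjusted p = 0.553).

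Under the high dose, where 15.6% of all genes were called and 8.8% were called higher, the same lists gave 1 of 7 transport and Fc receptor genes called higher (Pigr, 5.30 ± 1.45) and 3 called lower (Fcgr1, Fcgr3 and Fcer1g). Of 10 class switching and secretory genes, Xbp1, Pou2af1 and Pax5 rose and 1 fell. Pou2af1 and Pax5, transcriptional regulators of B cells, had 5.64 ± 1.52 and 5.07 ± 1.30. Of 9 survival and homing genes, Cxcl12 rose and Tgfb1 fell. Of 11 plasma cell markers, Mzb1, Pim2 and Xbp1 rose, and of 5 lymphoid tissue markers Ltb and Ccr7 did. No gene of the first 3 lists was called in the DC-101 or anti-PD1 experiments.

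The genes whose group-centred levels were most like those of each member were ranked among 15554 genes outside the immunoglobulin loci, over 32 libraries. For Igkc these were H2-Oa (r = 0.83), C7 (0.80), Rasgrf2 (0.80), Clec3b (0.78) and Hoxb2 (0.77). H2-Oa, a chain of the class II regulator H2-O of B cells, was among the 5 nearest genes of Igkc, Ighg1, Ighg2b, Ighg2c and Jchain. The nearest of Ighm were St3gal6 (0.87) and Cd40 (0.86), a B cell and antigen presenting cell receptor. For Ighg2b it was Irf4 (0.84), a transcription factor of activated B and plasma cells, and for Ighg2c it was Cd4 (0.84), the T helper coreceptor. Ighg1 was nearest to Rtl8c (0.81), Igha to Rasgrf2 (0.81) and Jchain to C7 (0.78). Without the 3 high dose libraries, r was 0.79 for Igkc with H2-Oa, 0.85 for Ighm with Cd40, 0.59 for Igkc with C7, 0.55 for Jchain with C7 and 0.53 for Ighg1 with Rtl8c.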

How the data were processed

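RNA of 32 tumours was sequenced as TruSeq stranded mRNA libraries. Per the labels, the authors trimmed reads with cutadapt 2.4 and aligned them to GRCm38 with STAR 2.7.2a, and the deposited values are raw counts of reads per gene (Gencode M19). The strand column used is not given in the sources used here. STAR counts uniquely aligned reads, so reads that fit several immunoglobulin genes can be missing.

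Each experiment was fitted with edgeR 4.0.16 (R 4.3.3; filterByExpr with a minimum count of 10 and a minimum total of 15, TMM scaling, robust quasi-likelihood test) on all its groups. A call is a Benjamini-Hochberg adjusted p under 0.05 over all genes tested. The low dose was also fitted over 3 experiments with the experiment as a term. CPM are relative to the TMM-scaled library total, and log2 CPM use a prior count of 2. Shares were tested by exact permutation within experiments, and correlations by 100000 permutations within groups. DESeq2 1.42.0, limma 3.58.1 (voom), other scalings and filters, a hepatocyte covariate, a replicate block and left-out libraries were alternatives.

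The members and gene lists were chosen with earlier results of these data known. The genes named are the 10 members, genes of fixed lists and the 5 genes most like each member. In simulated data, 85.5% of 200 genes changed by 2 on the log2 scale were recovered in the fit over 3 experiments and 54.0, 61.5 and 49.5% for the low dose within the dose experiment, the DC-101 experiment and the anti-PD1 experiment. No pair of the 36 replicate pairs agreed within sampling noise (chi-square per degree of freedom 12.9 to 834). Results for some genes of the lists are not reported here.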

Additional observations from a re-analysis of the deposited data

Results flagged for a closer look

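Vehicle library 4 of the dose experiment stood apart from the other 3 vehicle libraries for Ighg2b (-1.16 log2 CPM) and Ighg3 (-1.44 log2 CPM). It held 9 and 7 counts of these genes, and the other 3 libraries held 0 counts of both. In all, 28 sets of 4 libraries were looked at and 2 had such a library, where chance gives about 1 in 20 sets, or 1.4.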

How the results depend on the processing

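The counts of members called moved with the test, the filter, the scaling, the covariate, the block and the libraries. For the low dose over 3 experiments (3 called), DESeq2 gave 6, limma voom 5, no filter 1, at least 10 counts in every library 1, the replicate block 1, and leaving out the dose, DC-101 or anti-PD1 experiment 0, 0 and 1. Leaving out 1 library gave 1 to 4, and 1 without vehicle library 1 or 3 or low dose library 2 of the dose experiment, library 2 of either group of the DC-101 experiment, or any vehicle library of the anti-PD1 experiment. For the high dose against vehicle (7 called), total count scaling gave 1, limma voom, no filter, the hepatocyte covariate, the replicate block and a fit of both groups alone 0 each, at least 10 counts in every library 3, and leaving out 1 library 0 to 10. For the high against the low dose (0 called), DESeq2 gave 6 and leaving out 1 library 0 to 7, with 7 without high dose library 3. In the anti-PD1 experiment (0 called), DESeq2 gave 8 for the low dose, 6 for regorafenib plus anti-PD1 against vehicle and 7 against anti-PD1. The cause of these moves was not tested.

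The IgG share difference was 9.60 to 17.5 points without 1 library, and 17.6 and 6.83 points without the dose and the anti-PD1 experiment, where it lost its call, and 13.4 points with the replicate block. Same-numbered libraries of different groups deviated together (r over 0.1) in 2 of 9, 4 of 9 and 6 of 18 pairs in the 3 experiments. The rate among other pairs was not counted, so this does not settle whether the replicate number pairs the samples. The IgM share ran from -13.5 to -5.88 points without 1 library and was called without low dose library 1 of the DC-101 experiment (-12.4). The lambda share ran from -5.06 (called, without low dose library 3 of the DC-101 experiment) to -2.23, was -1.07 with only libraries of at least 100 light chain counts, was 0.346 without the dose experiment and was called at -6.83 without the DC-101 experiment.

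Correlations with Igkc that lost their call were, within the dose experiment, B cell 0.937, plasma cell 0.916, T cell 0.762 and lymphoid tissue 0.897, within the DC-101 experiment B cell 0.793, plasma cell 0.639 and T cell 0.610, and within the anti-PD1 experiment plasma cell 0.685, T cell 0.148 and lymphoid tissue 0.384. So were plasma cell 0.551 without the farthest 2 or the 3 high dose libraries, T cell 0.424 without the latter, and the T cell rank correlation of 0.47. Signs turned for hepatocyte (-0.427), erythrocyte (-0.182) and Kupffer cell (-0.212) within the anti-PD1 experiment, and for macrophage without the farthest 2 or the 3 high dose libraries (-0.0911) and within the DC-101 experiment (-0.362).

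Several log2 differences that passed no threshold changed sign. Iglc1 under the low dose of the dose experiment was -0.18 with limma voom, -0.52 with the replicate block and -0.72 to 0.42 without 1 library. Igkc under DC-101 was 0.0028 in a fit of both groups alone and -1.71 to 0.50 without 1 library, and Jchain was -0.51 with the hepatocyte covariate, -0.61 with the replicate block and -1.32 to 1.02 without 1 library. Ighm under anti-PD1 was -0.33 with the hepatocyte covariate. Without 1 library, Ighg3 ran from -0.51 to 4.16 between the doses, Igkc from -0.31 to 1.36 and Ighm from -0.26 to 0.63 under the low dose of the DC-101 experiment, and these 2 genes from -0.31 to 2.65 and from -0.47 to 0.47 between the low dose and DC-101.

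The filter by treatment and experiment and the correlations without the high dose were chosen after seeing the data. Depth limits the IgG genes and the lambda genes, which had few counts in most vehicle libraries.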
